A study of Arabidopsis thaliana with 39 samples.

Results

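The genes described here encode proteins of the large (60S) subunit of the cytosolic ribosome of Arabidopsis thaliana. They are the 60 genes annotated as RPL3 to RPL26 in the gene list fixed for this work, they belong to 26 protein families, and all 60 are present among the 37184 genes listed for the time course. Members were chosen by gene name and not by their values, although earlier results of these data were already known. They lie on all 5 nuclear chromosomes, 16 of them on chromosome 1, 12 on chromosome 2, 16 on chromosome 3, 7 on chromosome 4 and 9 on chromosome 5. Their levels were followed through the induction of secondary dormancy (SD), the dormancy that mature seeds enter when imbibed under conditions that do not allow germination.

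All seeds were dry, after-ripened seeds stored for at least 6 months before use, with the seeds of 2 plants combined as 1 biological replicate. In the time course, Col-0 (wild-type) seeds of a single pool were imbibed for 1 h, or kept on wet paper at 30°C without light. Those at 30°C were sampled after 1 day and at 3, 5 and 7 days. For recovery, seeds were moved after the 7 days to constant light at a lower temperature for 24 h (7 days + 24 h). Light and temperature changed together at that step and cannot be told apart. A pool-split control was made from 7-day seeds whose extracts were mixed and divided again before processing. In a second experiment (the dog1 experiment) Col-0 and the dog1-4 mutant, which is defective in the dormancy gene DELAY OF GERMINATION 1 (DOG1), were sampled at 3 days and at 7 days + 24 h. Dry seed pools of both genotypes, 3 of each, were sequenced without treatment. Each single-seed group had 3 libraries of 32 barcoded seeds, so a p-value here measures the spread between batches of seeds. Which seed pools entered the dog1 experiment is not given in the labels, so genotype and seed pool cannot be told apart there.

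Levels are unique molecular identifier (UMI) counts of transcript 3′ ends, which give 1 count per captured transcript and are not divided by gene length. A genic UMI is one on a nuclear protein-coding gene and an unspecific UMI is any other. CPM stands for counts scaled to 1000000 genic UMIs after scaling by the trimmed mean of M values. After seeds with under 5000 genic UMIs were left out, 665 of 672 seeds of the time course and 382 of 384 of the dog1 experiment remained, and libraries held 731423 to 3132901 genic UMIs in the time course, 1737013 to 4993365 in the dog1 experiment and 836376 to 3378782 in the dry pools. Unspecific UMIs made up 62.0 to 75.5% of the counts at 3 and 5 days of the time course, 41.9 to 62.7% at 1 h, 50.5 to 57.6% in the pool-split control and 17.7 to 31.5% at its other times, against 10.5 to 13.9% in the dog1 experiment and 3.24 to 5.26% in the dry pools. DOG1 (AT5G45830) measured 57.3 to 138 CPM in Col-0 and 6.88 to 11.7 CPM in dog1-4 at 3 days, and 68.5 to 79.7 against 3.59 to 7.79 CPM in the dry pools, matching the genotype labels. The seed storage gene CRA1 (AT5G44120) stood at group means of 9416 to 87353 CPM in the time course and the photosynthesis gene CAB1 (AT1G29930) at 0.444 to 45.9 CPM. All 10 seed storage and oil body markers were detected in every single-seed library. The 7 markers of green tissue summed to 15.1 to 679 CPM per library of the time course and 37.8 to 436 CPM in 11 of the 12 libraries of the dog1 experiment. The library labelled dog1-4, 3 days, replicate 3 stood apart at 6990.4 CPM, with CAB1 at 2122 CPM and the lowest seed markers of the 3-day libraries. In it 8 of 32 seeds held 100 or more of these UMIs and no other 3-day library of the experiment had such a seed, so results that rest on it are given with and without it.

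The 60S subunit carries the peptidyl transferase centre, where amino acids are joined, and the tunnel through which the new protein leaves. Its proteins are made in the cytoplasm, and most are imported into the nucleolus and assembled on ribosomal RNA. In plants each protein is encoded by a small family of expressed gene copies, and synthesis of ribosomes resumes when a dry seed takes up water and prepares to germinate. Promoters of plant ribosomal protein genes often hold short shared elements, among them the telo box (AAACCCTA) and the site II element (TGGGCC or TGGGCT).

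Those letters were searched on both strands of the RefSeq promoters of TAIR10.1, from 250 bases before to 50 bases after the annotated start. The telo box letters occurred in 32 of the 60 promoters (53.33%) against 6.224% of 27444 promoters of protein-coding genes, and the site II letters in 52 (86.67%) against 21.72%. Both were present in 28 (46.67%) against 2.204%. The telo box lay largely after the start, since only 12 promoters (20%) held it in the 250 bases before the start against 4.489% of all, while site II was found there in 44 (73.33%) against 19.18%. The other 70 genes of the large subunit had them in 42.86% and 77.14% of the longer windows. A match describes letters in a window and is not a shown binding site. The 250 bases before the start of 6 genes that recur in the results are printed with the letters of either element in capitals. AT1G43170 (RPL3A) was the most abundant copy through induction and AT1G02780 (RPL19) the most abundant after recovery, AT2G44120 (RPL7) rose most on the first day, AT5G67510 (RPL26) departed from the common pattern, and AT1G18540 (RPL6) and AT3G16780 (RPL19) were among those with the largest differences between genotypes.
AT1G43170 (RPL3), TAIR10.1 chr1:16266303-16266552, plus strand: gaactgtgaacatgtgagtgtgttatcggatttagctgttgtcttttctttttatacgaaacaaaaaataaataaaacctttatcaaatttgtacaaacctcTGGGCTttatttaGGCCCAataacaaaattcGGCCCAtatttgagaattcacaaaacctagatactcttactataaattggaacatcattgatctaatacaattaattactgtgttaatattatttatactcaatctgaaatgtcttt
AT1G02780 (RPL19), TAIR10.1 chr1:609535-609784, minus strand: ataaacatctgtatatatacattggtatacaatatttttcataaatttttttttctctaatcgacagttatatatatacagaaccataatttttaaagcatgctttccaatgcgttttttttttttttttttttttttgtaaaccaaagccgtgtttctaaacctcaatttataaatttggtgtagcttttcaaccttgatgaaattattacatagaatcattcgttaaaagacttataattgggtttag
AT2G44120 (RPL7), TAIR10.1 chr2:18251157-18251406, minus strand: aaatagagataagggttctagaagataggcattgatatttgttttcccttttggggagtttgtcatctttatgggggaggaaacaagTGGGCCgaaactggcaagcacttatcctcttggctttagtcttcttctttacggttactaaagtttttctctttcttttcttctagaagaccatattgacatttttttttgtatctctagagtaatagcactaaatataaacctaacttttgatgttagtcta
AT5G67510 (RPL26), TAIR10.1 chr5:26938499-26938748, minus strand: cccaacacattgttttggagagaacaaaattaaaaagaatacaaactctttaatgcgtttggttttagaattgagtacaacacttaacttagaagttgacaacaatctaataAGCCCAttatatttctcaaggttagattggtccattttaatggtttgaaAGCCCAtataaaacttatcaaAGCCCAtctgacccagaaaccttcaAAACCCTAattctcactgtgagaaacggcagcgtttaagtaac
AT1G18540 (RPL6), TAIR10.1 chr1:6378581-6378830, minus strand: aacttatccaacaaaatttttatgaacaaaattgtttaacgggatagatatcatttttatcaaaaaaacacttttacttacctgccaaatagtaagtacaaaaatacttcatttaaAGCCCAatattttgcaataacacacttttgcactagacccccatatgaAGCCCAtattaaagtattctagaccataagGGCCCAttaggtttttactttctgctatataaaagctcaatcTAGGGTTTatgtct
AT3G16780 (RPL19), TAIR10.1 chr3:5708576-5708825, plus strand: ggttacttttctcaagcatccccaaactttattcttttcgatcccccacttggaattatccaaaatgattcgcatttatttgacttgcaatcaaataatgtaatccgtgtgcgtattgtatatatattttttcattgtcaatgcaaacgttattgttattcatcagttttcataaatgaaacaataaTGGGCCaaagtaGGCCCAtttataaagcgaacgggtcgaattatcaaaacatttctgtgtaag
Read from 5′ to 3′, the RPL3A window held 3 site II matches, that of AT5G67510 held 1 telo box and 3 site II matches, as did that of AT1G18540, and that of AT1G02780 held neither although the 50 bases after its start added 2 site II matches. No element was found in the longer windows of AT1G74050 (RPL6), AT3G13580 (RPL7), AT1G09590 (RPL21) and AT2G39460 (RPL23a). From 1 h to 1 day the median log2 fold change was 1.88 in the 32 genes that held the telo box, of which 28 were called, and 2.17 in the 27 that did not, all of them called. The difference was not tested.

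Transcripts of the 60 genes were scarce in seeds imbibed for 1 h, rose on the first day of treatment, fell to lower levels from 3 to 7 days and rose again in recovering seeds. At 1 h they made up 0.387, 0.388 and 0.369% of the genic UMIs of the 3 libraries, and at 1 day 1.99, 2.14 and 1.87%. The 3-day libraries then stood at 0.455, 0.595 and 0.672%, the 5-day libraries at 0.605, 0.589 and 0.552% and the 7-day libraries at 0.923, 0.795 and 0.955%. Seeds were measured whole, so fewer cells with these transcripts and fewer transcripts per cell cannot be told apart. The libraries of 3 and 5 days overlapped, and those of 7 days all lay above them. After 24 h of recovery the share reached 2.77, 2.20 and 2.33%, above every other library of the time course. The pool-split control, made from seeds of the same time as the 7-day libraries, gave 0.514, 0.467 and 0.525%, below all 3 of them, with 50.5 to 57.6% unspecific UMIs against 25.7 to 31.5% at 7 days. The part of unspecific UMIs in this gap, and in the low shares at 3 and 5 days, was not tested, but Col-0 seeds at 3 days in the dog1 experiment had 12.4 to 13.9% unspecific UMIs and shares of 0.684, 0.775 and 0.590%. The 4 groups of the time course with the most unspecific UMIs, 1 h, 3 days, 5 days and the pool-split control, were also the 4 with the lowest shares of the members.

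**Figure D1:**
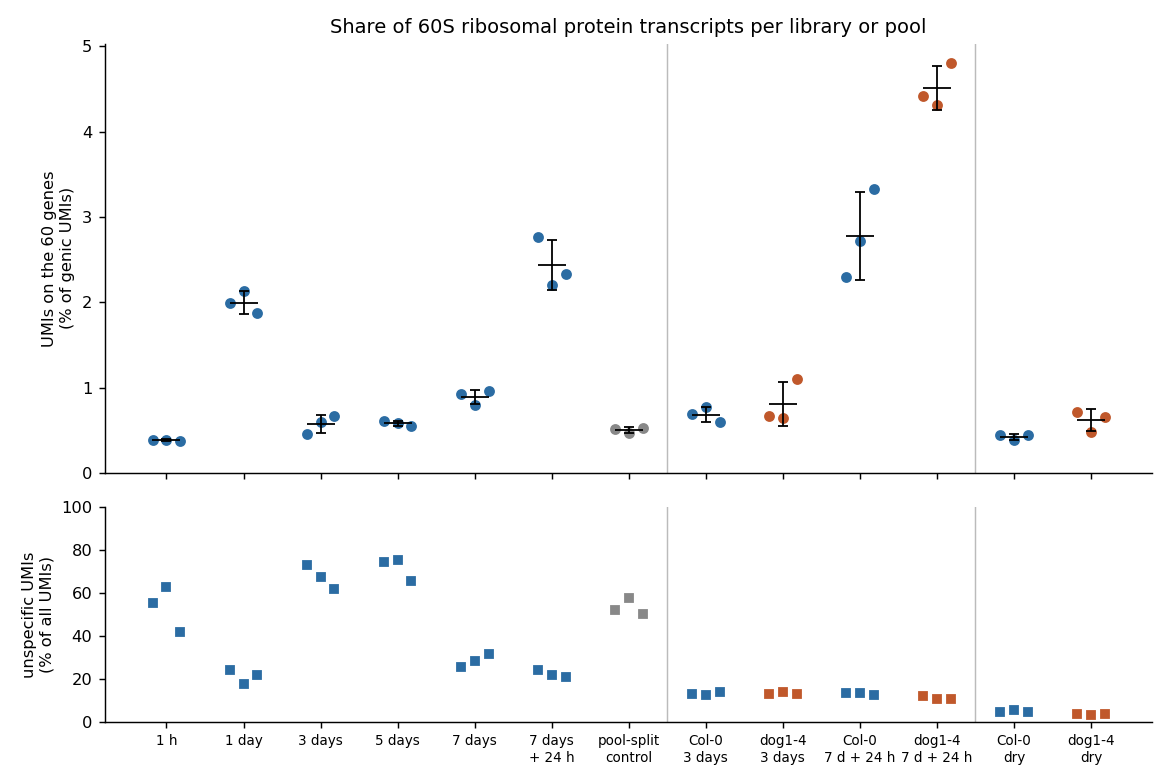
Upper panel, UMIs on the 60 genes as a percentage of genic UMIs in each library or dry pool (points) with the group mean (bar, n = 3); lower panel, unspecific UMIs as a percentage of all UMIs in the same libraries. The share is highest at 1 day (1.87 to 2.14%) and after recovery (2.20 to 2.77% in the time course, 4.31 to 4.80% in dog1-4), and the unspecific share is highest at 3 and 5 days of the time course.

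Changes of single genes were tested on the counts summed over the seeds of a library, with the quasi-likelihood test of edgeR and Benjamini-Hochberg adjustment over all genes tested. A gene was called when its adjusted p was under 0.05 and its log2 fold change lay beyond 1 in either direction. Of the 60 members 59 entered the time course test among 8074 genes. The gene left out was AT1G26910 (RPL10B), which averaged 0.635 UMI per seed against a minimum of 1. Tested for any change over the 6 time points, all 59 passed an adjusted p of 0.05, against 86.2% of all genes tested. Of these 59, 41 were among the 500 genes with the smallest p, and their median rank was 377.

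From 1 h to 1 day of treatment 55 of the 59 were called higher and none lower, against 13.8% of all genes tested called higher and 13% called lower. The median log2 fold change was 2.06 among the members and -0.01 among all genes. AT2G44120, a copy of RPL7, which binds ribosomal RNA, stood at 21.9, 36.9 and 33.2 CPM at 1 h and 231, 237 and 228 at 1 day. The groups lay far apart, and its log2 fold change of 2.90 ± 0.22 SE was the largest of the set (adjusted p = 2.69e-11). AT1G09690, the more abundant listed copy of RPL21, rose from 72.6, 63.4 and 74.8 to 568, 546 and 432 CPM, a log2 fold change of 2.88 ± 0.16 SE (adjusted p = 1.14e-13). AT5G22440, a minor copy of RPL10a, the protein of the mobile L1 stalk, rose from 8.22, 9.23 and 5.54 to 49.8, 69.1 and 50.1 CPM (2.85 ± 0.32 SE, adjusted p = 2.92e-08). Both abundant and rare copies were thus among the largest changes.

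Of the 4 members not called on the first day, none leads its family. Among them, AT1G66580 (RPL10C) passed the adjusted p but gained less than the fold limit, with 0.81 ± 0.15 SE. AT4G13170 (RPL13a) stood at 26, 32.3 and 27.7 CPM and then 38.8, 35.8 and 42.7 CPM (0.44 ± 0.25 SE, adjusted p = 0.136). AT5G67510 (RPL26), whose protein lies beside the exit tunnel, measured 15.1, 27.7 and 11.1 and then 17.9, 20.6 and 29 CPM, with overlapping groups and a log2 fold change of 0.28 ± 0.39 SE (adjusted p = 0.566). Counts of this gene were low, 8 to 24 per library at 1 h.

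From 1 to 3 days, 52 of the 59 were called lower and none higher, against 7.48% of all genes called lower and 9.17% called higher. The median was -1.68 among the members and 0.03 among all genes. AT1G09690 (RPL21) went from 568, 546 and 432 to 67.7, 103 and 104 CPM and had the largest decrease (-2.47 ± 0.15 SE, adjusted p = 9.47e-12). AT4G17390, the minor copy of RPL15, went from 327, 317 and 266 to 43.6, 57.3 and 63.9 CPM (-2.43 ± 0.18 SE, adjusted p = 1.21e-10). AT3G07110, a copy of RPL13a, went from 247, 280.1 and 239.9 to 46.6, 36 and 65.2 CPM (-2.31 ± 0.20 SE, adjusted p = 1.80e-09). In each of these the 3 libraries of 3 days lay below the 3 of 1 day and overlapped those of 1 h again.

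RPL3A fell less than most. This protein reaches into the peptidyl transferase centre, and its gene AT1G43170 (chromosome 1, 16266553 to 16268945, plus strand) measured 190.4, 175 and 133 CPM at 1 h, 1078, 1317 and 1100.1 at 1 day and 642, 768 and 723 at 3 days. Its decrease after the first day was -0.71 ± 0.14 SE (adjusted p = 1.34e-04), so it was not called, and it remained well above its level at 1 h. AT1G43170 was the most abundant member at 1, 3, 5 and 7 days, in the pool-split control and in both 3-day groups of the dog1 experiment. A further 6 members were not called between 1 and 3 days, among them AT2G33370 (RPL23, -0.57 ± 0.16 SE) and AT3G55280 (RPL23a, -0.50 ± 0.15 SE), and AT5G67510 (RPL26) was the only one with a positive value (0.11 ± 0.36 SE, adjusted p = 0.827). The remaining 3 were AT2G42740 (RPL11, -0.64 ± 0.21 SE), AT4G13170 (RPL13a, -0.94 ± 0.25 SE) and AT3G16780 (RPL19, -0.81 ± 0.19 SE).

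Between 3 and 5 days no member was called, against 0.0495% of all genes called higher and 0.0867% called lower by edgeR. At an unadjusted p under 0.05 there were 9 of 59 members, and 772 of all 8074 genes. DESeq2 called 0 members higher. The median log2 fold change was 0.07 among members and 0.02 among all genes. RPL3A (AT1G43170) measured 591, 489 and 628 CPM at 5 days (-0.32 ± 0.14 SE, adjusted p = 0.431), with all 3 libraries below those of 3 days.

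From 5 to 7 days none was called higher and 2 were called lower, against 1.66% and 9.3% of all genes. The median log2 fold change was 0.38 among members and 0.06 among all genes, and without the fold limit 21 members were higher and 3 lower at an adjusted p under 0.05, against 18.2% and 17.4% of all genes. The genes called lower were minor copies. AT5G67510 (RPL26) went from 43.1, 53.2 and 17 to 9.45, 6.02 and 17.4 CPM (-1.52 ± 0.37 SE, adjusted p = 0.00233), with widely spread and slightly overlapping libraries. AT2G33370, a copy of RPL23, a protein at the face that meets the small subunit, went from 137, 117 and 80.8 to 47.2, 54.2 and 61.3 CPM without overlap (-1.01 ± 0.17 SE, adjusted p = 5.10e-05). Unspecific UMIs fell from between 65.5 and 75.5% to between 25.7 and 31.5% over the same step. The count of members called lower was 1 without 5-day replicate 1 or 2 or without 7-day replicate 1. The counts for this step also depended on the genes that entered the test: with 20216 genes, kept by the count filter of edgeR (filterByExpr) alone, 45 of 60 members were called higher and none lower, against 20.1% and 34.8% of all genes, with medians of 1.23 and -0.03.

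The comparison of 7-day seeds with the pool-split control of the same time gives the size of differences that arise without a difference in treatment. Here 3 members were called higher in the 7-day seeds and none lower, against 0.396% and 1.37% of all genes, and without the fold limit 39 were higher and none lower, against 4.47% and 3.17% of all. The median member was 0.65 higher on the log2 scale, against 0.03 for all genes. AT2G27530 (PGY1), the leading copy of RPL10a, measured 278, 249 and 259 CPM in 7-day seeds and 139, 105 and 130.3 in the control (1.07 ± 0.13 SE, adjusted p = 1.43e-05). AT5G39740 (RPL5B), whose protein binds the 5S ribosomal RNA, and AT5G27850 (RPL18) had values of 1.02 ± 0.16 SE and 1.01 ± 0.15 SE. None was called without pool-split replicate 2, and 8 were called without 7-day replicate 2, with no share of all genes given for these fits. The median of 0.65 exceeds the 0.38 of the step from 5 to 7 days and is below those of the steps from 1 h to 1 day, from 1 to 3 days and into recovery. Scaled by library size alone, 13 were called, against 1.18% of all genes. With the 20216 genes just named, 29 were called, against 1.81% of all, with a median of 0.98.

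In recovering seeds the set rose again. From 7 days to 7 days + 24 h, 43 of 59 members were called higher and none lower, against 9.91% and 8.21% of all genes, with medians of 1.32 and -0.02. AT5G22440 (RPL10a) went from 15.9, 16.1 and 16.5 to 104, 67.3 and 70.4 CPM (2.31 ± 0.21 SE, adjusted p = 3.45e-09). AT1G09590 (RPL21), whose 3′ end is not fully unique, went from 24.8, 27.1 and 37.5 to 163, 135 and 133 CPM (2.21 ± 0.18 SE, adjusted p = 6.26e-10). AT4G13170 (RPL13a), which had not been called on the first day, went from 16.5, 18.1 and 21.3 to 96.8, 55.7 and 72.2 CPM (1.97 ± 0.21 SE, adjusted p = 2.16e-08). All 3 are minor copies, and their recovery libraries lay far above their 7-day libraries.

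The 16 members not called in recovery included several abundant ones. RPL3A (AT1G43170) measured 746, 709 and 739 CPM at 7 days and 768, 659 and 704 after recovery, with overlapping groups and a log2 fold change of -0.04 ± 0.13 SE (adjusted p = 0.815). AT1G33140 (PGY2), the leading copy of RPL9, had 361, 305 and 374 and then 408, 420.0 and 421 CPM (0.26 ± 0.14 SE, adjusted p = 0.122). The neighbouring RPL6 copies AT1G74050 and AT1G74060 had 0.19 ± 0.11 SE and 0.27 ± 0.13 SE, while the remaining copy, AT1G18540, went from 89.8, 63.2 and 89 to 281, 231 and 224 CPM and was called (1.58 ± 0.15 SE, adjusted p = 3.58e-09). AT2G42740 (RPL11), which with RPL5 and 5S ribosomal RNA forms a particle that joins the early subunit, had -0.06 ± 0.17 SE (adjusted p = 0.787). AT5G23900 (RPL13) had 0.27 ± 0.14 SE (adjusted p = 0.101). Without the fold limit 53 members were higher, against 25.4% of all genes. The other 10 of the 16, among them AT2G18020 (RPL8, 0.52 ± 0.13 SE) and AT1G02780 (RPL19, 0.96 ± 0.15 SE), passed the adjusted p with a smaller gain than the limit.

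**Figure D2:**
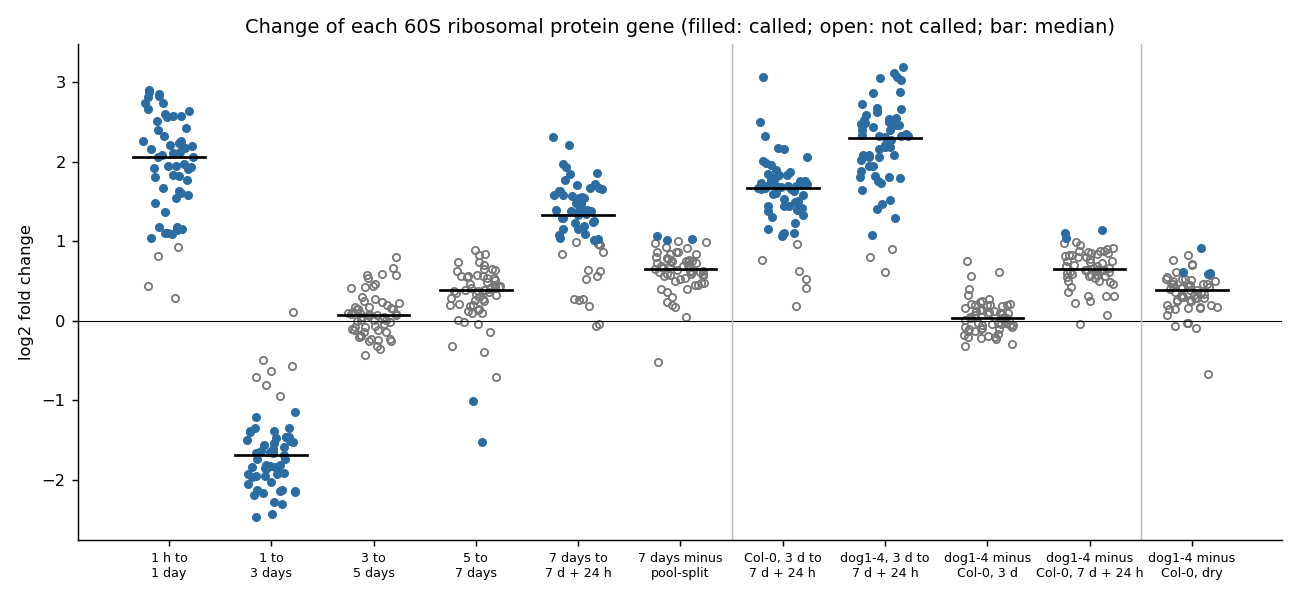
Log2 fold change (vertical axis) of each member (points, filled where called, open where not) in each comparison (horizontal axis), with the median of the members (bar). Medians are 2.06 from 1 h to 1 day, -1.68 from 1 to 3 days and 1.32 from 7 days to 7 days + 24 h, and 0.65 for 7-day seeds against the pool-split control.

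The change from 3 days to 7 days + 24 h was measured in both experiments with separate libraries. In the time course 50 of 59 members were called higher, against 9.67% of all genes, and none lower, against 11%. In Col-0 of the dog1 experiment 54 of 60 were called higher, against 13.4% of all genes, and none lower, against 8.39%. The medians were 1.65 and 1.67. Across the 59 members tested in both, Pearson's r was 0.782 and Spearman's rho 0.745, and 58 had the same sign. Genes are not independent replicates, and all points of an experiment share its libraries. Unspecific UMIs were 62.0 to 73.1% at 3 days in the first experiment and 12.4 to 13.9% in the second.

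The largest increases of this contrast in the time course were in AT5G60670 (RPL12, from 15, 9.33 and 15 to 111, 88.9 and 94.2 CPM, 2.86 ± 0.26 SE), AT2G01250 (RPL7, 2.53 ± 0.18 SE) and AT1G27400 (RPL17, 2.45 ± 0.22 SE). RPL12 proteins form the base of the stalk that recruits elongation factors. In Col-0 of the dog1 experiment AT5G60670 rose from 27.7, 35 and 14.2 to 101, 147 and 188 CPM (2.50 ± 0.39 SE, adjusted p = 3.49e-04). AT1G26910 (RPL10B), the scarcest member in every group, had the largest value there (3.07 ± 0.48 SE), from counts of 4, 7 and 2 to 49, 88 and 112. It was followed by AT5G67510 (RPL26), which rose from 20.9, 18.9 and 8.26 to 55, 77.3 and 108 CPM (2.32 ± 0.37 SE) against 0.90 ± 0.33 SE in the time course. The 2 experiments thus differed most for this gene, by 1.42 on the log2 scale, and it was 1 of the copies that stood high at 3 days only where unspecific UMIs were high.

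**Figure D3:**
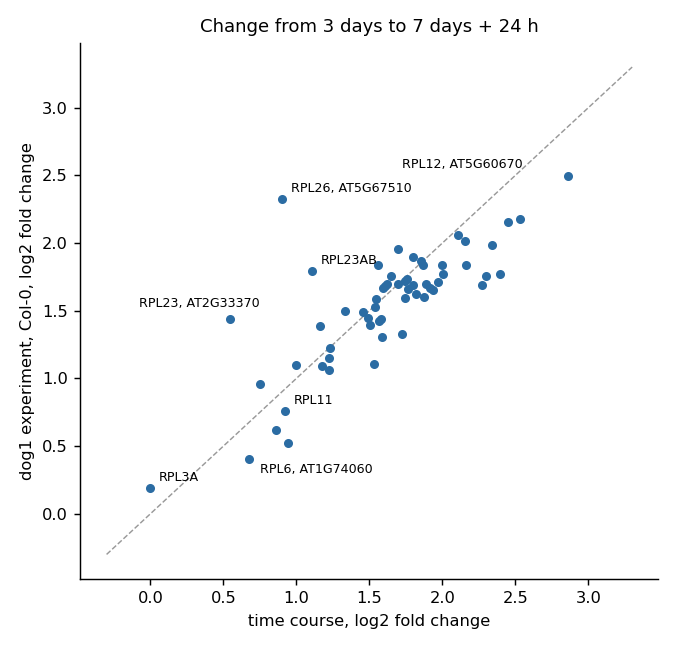
Log2 fold change from 3 days to 7 days + 24 h of 59 members in the time course (horizontal axis) and in Col-0 of the dog1 experiment (vertical axis), with the line of equal change. Points follow the line (Pearson's r 0.782), and RPL3A lies lowest in both.

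RPL3A (AT1G43170) was not called over this interval in either experiment. It measured 642, 768 and 723 CPM at 3 days and 768, 659 and 704 after recovery in the time course (-0.0013 ± 0.13 SE, adjusted p = 0.996), and 778, 788 and 641 and then 788, 784 and 943 CPM in Col-0 of the dog1 experiment (0.19 ± 0.13 SE, adjusted p = 0.261). The other 5 members not called in that experiment were AT1G74060 and AT1G74050 (RPL6), AT1G33140 (RPL9), AT2G42740 (RPL11) and AT5G23900 (RPL13), with values from 0.41 ± 0.15 SE to 0.96 ± 0.19 SE. All 5 were also below the limit in the time course.

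In dog1-4 the same interval gave 57 of 60 members called higher and none lower, against 17.6% and 16% of all genes, with a median of 2.29. Without replicate 3 of 3 days 57 were called as well, with a median of 2.45. The largest values were in AT1G26910 (RPL10B, 3.20 ± 0.41 SE), AT1G27400 (RPL17, 3.12 ± 0.33 SE) and AT5G22440 (RPL10a, 3.06 ± 0.30 SE). AT1G27400, the minor copy of a protein that lines the end of the exit tunnel, rose from 75.9, 47.5 and 122 to 655, 628 and 879 CPM. Here RPL3A (AT1G43170) did pass the adjusted p, with 802, 751 and 659 and then 1160.2, 1136 and 1082 CPM and a gain of 0.61 ± 0.13 SE (adjusted p = 0.0018), under the fold limit. AT1G74050 (RPL6, 0.90 ± 0.12 SE) and AT1G33140 (RPL9, 0.80 ± 0.12 SE) were the others not called.

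At 3 days the genotypes were not told apart by these genes. The share was 0.684, 0.775 and 0.590% in Col-0 and 0.669, 0.642 and 1.1% in dog1-4, so that only dog1-4 replicate 3 lay above the Col-0 range. No member was called by edgeR, against 0.681% of all genes called higher and 0.327% called lower, and DESeq2 called 0 members higher. At an unadjusted p under 0.05 there was 1 of 60 members, and 2262 of all 11019 genes. The median difference was 0.04. Without replicate 3 of dog1-4, which holds the green tissue transcripts, none was called either, the median was -0.20 and 6 of 60 values were positive, so the direction of the median rested on that library. The part of that tissue signal in its share was not tested.

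After recovery the members were higher in dog1-4 than in Col-0. The share was 2.30, 2.72 and 3.32% in Col-0 and 4.42, 4.31 and 4.80% in dog1-4, and the groups did not overlap. The summed seed markers were 33812 to 51038 CPM in Col-0 and 10769.6 to 12969 CPM in dog1-4, the green tissue markers were 107 to 122 and 233 to 436 CPM, and their part in the difference was not tested. Only 3 members were called higher and none lower, against 4.17% and 5.86% of all genes. Without the fold limit 44 of 60 were higher at an adjusted p under 0.05, against 16.7% of all genes. The median was 0.65 among members and 0.03 among all genes, so most members differed by less than the limit. The median between 7-day seeds and their pool-split control was also 0.65, but in libraries with 25.7 to 31.5% and 50.5 to 57.6% unspecific UMIs. Here they were 12.6 to 13.5% in Col-0 and 10.5 to 11.8% in dog1-4, so the conditions were unlike. AT3G16780, the smallest of the 3 copies of RPL19, a protein that also contacts the small subunit, measured 71.9, 89.1 and 109.9 CPM in Col-0 and 214, 183 and 201 in dog1-4 (1.14 ± 0.20 SE, adjusted p = 0.0025). AT5G67510 (RPL26) measured 55, 77.3 and 108 and 167, 163 and 189 CPM (1.11 ± 0.32 SE, adjusted p = 0.0205). AT1G18540 (RPL6) measured 253, 347 and 474 and 664, 698 and 849 CPM (1.04 ± 0.31 SE, adjusted p = 0.0245). For all 3, no Col-0 library reached the lowest dog1-4 library. The count of called members moved with single libraries, from 0 without Col-0 replicate 1, 1 without dog1-4 replicate 3 and 2 without Col-0 replicate 2 to 4 or 5 without dog1-4 replicate 1 or 2 and 18 without Col-0 replicate 3. Shares of all genes called in these fits are not given.

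Whether dog1-4 changed more than Col-0 between the time points was tested as an interaction. Its values were positive in all 60 members, with a median of 0.62 against -0.03 over all genes. Only 1 member was called higher and none lower, against 0.799% and 3.28% of all genes. Without the fold limit the counts were the same, against 1.86% and 4.34% of all genes. At an unadjusted p under 0.05 there were 24 of 60 members, and 2798 of all 11019 genes. AT3G16780 (RPL19) was the gene called (1.17 ± 0.31 SE, adjusted p = 0.0473). Its libraries measured 37.6, 42.3 and 29.5 CPM in Col-0 and 26.3, 31.9 and 46.9 in dog1-4 at 3 days, where they overlapped. Without dog1-4 replicate 3 of 3 days, the library with the high share and the green tissue transcripts, 14 members were called, and without any of 10 of the other 11 libraries none was. None was called either with scaling by library size alone. For the fits without single libraries the shares of all genes called are not given, so the 14 has no background. Without replicate 3 of dog1-4 at 3 days all 60 values were again positive and their median was 0.85, against -0.015 over all genes. The median between 7-day seeds and the pool-split control was 0.65, but unspecific UMIs differed there (25.7 to 31.5% against 50.5 to 57.6%). In the dog1 experiment they were 10.5 to 13.9%, so the medians were not measured under like conditions.

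In dry pools 58 members were tested among 9493 genes, and a gene was called at an adjusted p under 0.05 with no fold limit. The share was 0.441, 0.383 and 0.445% in Col-0 and 0.718, 0.476 and 0.660% in dog1-4, with every dog1-4 pool above every Col-0 pool. Of the members 4 were called higher in dog1-4 and none lower, against 4.78% and 5.17% of all genes. At an unadjusted p under 0.05 there were 26 of 58 members, and 1985 of all 9493 genes. The median was 0.39, against 0.01 for all genes. AT1G09590 (RPL21) measured 16.9, 19 and 20.9 CPM in Col-0 and 48, 26.9 and 34.4 in dog1-4 (0.92 ± 0.25 SE, adjusted p = 0.0192). AT2G18020 (RPL8), a protein close to the peptidyl transferase centre, measured 154, 110.1 and 113 and 208, 148 and 224 CPM (0.61 ± 0.19 SE, adjusted p = 0.038), with overlapping groups. The RPL7a copies AT3G62870 (0.59 ± 0.17 SE) and AT2G47610 (0.58 ± 0.18 SE) were the others. The share of members called was close to that of all genes. The count was 0 without Col-0 pool 2, 1 without dog1-4 pool 1 or 3, 2 without Col-0 pool 3 and 16 without dog1-4 pool 2. Shares of all genes called without single pools are not given. Scaling by library size alone gave 21, against 7.92% of all genes called higher and 3.68% called lower, and DESeq2 gave 0. The members not tested were AT5G60670 (RPL12), at 2.95, 3.8 and 4.82 and 5.61, 4.18 and 5.33 CPM, and AT1G26910 (RPL10B), which had 0 counts in each Col-0 pool and 5, 7 and 2 in the dog1-4 pools. A count of 0 allows up to 3 counts per pool, so no fold is given.

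The other 70 genes of the large subunit, RPL27 onward with the stalk proteins and further copies of the families above, were counted in the same way. From 1 h to 1 day 51 of the 59 tested were called higher, from 1 to 3 days 51 were called lower, and from 7 days to recovery 42 were called higher and 1 lower. From 3 to 5 days none was called. Between genotypes after recovery 9 of 62 were called higher and 1 lower, beside the 3 of 60 members, and this difference was not tested.

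In most families the same copy led at all 6 time points. Of the 26 families 24 have 2 or more genes among the members, 15 with 2, 8 with 3 and 1 with 4. Over the 18 libraries of the time course, without the pool-split control, the leading copy took between 39.3 and 93.0% of the family's UMIs, with a median of 66.7%, over 75% in 7 families and under 60% in 9. It led in every one of the 18 libraries in 14 families and in the mean of all 6 time points in 19. The same copy led in the dog1 experiment in 23 families, in the dry pools in 23 and in both in 22. These shares are taken over the copies among the members, and further annotated copies lower them in some families, most of all in RPL21. Sequences of 55 bases from the last 300 bases of each transcript were unique in the genome annotation for 58 members, so copies could be told apart. They were 91.5% unique for AT1G74050 (RPL6) and 94.3% for AT1G09590 (RPL21).

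The families with the most unequal copies were RPL26, with AT3G49910 at 93.0%, RPL8, the protein beside the catalytic centre, with AT2G18020 at 86.3%, and RPL14, with AT4G27090 at 85.5%. RPL19 followed with AT1G02780 at 78.0%, RPL21 with AT1G09690 at 77.7% (60.2% with the 2 copies outside the members counted), RPL24 with AT3G53020 (STV1) at 77.4% and RPL13 with AT3G49010 at 76.7%. RPL24 forms a bridge to the small subunit and STV1 is needed for normal gynoecium development. Among those between 60 and 75% were the leaders of RPL17 (AT1G67430, 69.7%), RPL10 (AT1G14320, 68.1%), RPL23 (AT3G04400, 67.9%), RPL23a (AT2G39460, 67.8%), RPL15 (AT4G16720, 65.6%), RPL7a (AT3G62870, 65.1%) and RPL9 (AT1G33140, 63.9%). RPL10 joins the subunit as one of the last steps of its assembly in the cytoplasm. The most even families were RPL18 (AT5G27850, 59.7%), RPL10a (AT2G27530, 56.9%), RPL5 (AT5G39740, 56.2%), RPL4 (AT3G09630, 55.9%), RPL22 (AT3G05560, 55.9%), RPL7 (AT2G01250, 51.6%, or 44.6% with 1 further copy), RPL12 (AT3G53430, 50.8%), RPL6 (AT1G74050, 43.7%) and RPL13a (AT3G24830, 39.3%). RPL4 extends into the exit tunnel of the subunit.

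RPL3 and RPL11 have a single gene among the members, and 9 of the families have further copies that the member list leaves out. For RPL11 the listed gene AT2G42740 was the lowest of 4, with 1696 UMIs over the time course against 13730 for AT4G18730, 4433 for AT5G45775 and 2426 for AT3G58700. The listed RPL3A carried 26491 UMIs against 812 for AT1G61580. In the other families with such copies none exceeded the leading member, the nearest being AT1G80750 of RPL7 with 2383 UMIs against 7824 for AT2G01250. The RPL11 values above therefore describe a minor copy, and those of RPL3 the dominant one.

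The balance between copies moved with time. A copy gained or lost at least 10 percentage points of its family in some step between successive time points in 28 of 58 cases, spread over 16 families. There were 16 such moves from 1 h to 1 day, 6 from 1 to 3 days, 1 from 3 to 5 days, 10 from 5 to 7 days and 12 in recovery. None exceeded this size between 7-day seeds and the pool-split control, between genotypes at 3 days or between dry pools.

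RPL6 was the clearest case in recovery. AT1G18540 took 36.7% ± 2.8 of the family in the 1 h libraries and 22.8% ± 1.38 a day later, dropped to 16% ± 1.93 by the end of the treatment and regained 33.3% ± 1.24 after recovery (mean ± SD, n = 3). In the dog1 experiment it took 18.6% ± 4.41 at 3 days and 34.8% ± 5.42 after recovery in Col-0, and 21% ± 7.49 and 47% ± 2.16 in dog1-4. It was the 1 copy that differed by 10 points or more between genotypes after recovery, and it took 40.1% of the family summed over that experiment, although it led in 4 of its 12 libraries and, of the 4 groups, only in dog1-4 after recovery. Its counterparts AT1G74050 (chromosome 1, 27847038 to 27849008) and AT1G74060 (27849217 to 27851437) lie next to each other on the minus strand and moved together.

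In RPL13 the leading copy lost ground after the first day of treatment and regained it in recovery. AT3G49010 (BBC1) took 77.7% ± 1.64 after 1 day, 66.9% ± 5.62 and 65.9% ± 0.813 in 3-day and 7-day seeds and 79.7% ± 1.64 after recovery, so that the minor copy AT5G23900 held more of the family at 3 and 7 days. In Col-0 of the dog1 experiment it went from 66.9% ± 0.84 to 77.7% ± 0.553. RPL4 changed leader in dog1-4 after recovery, where AT5G02870 took 53.3% ± 1.89. RPL5 was led by AT3G25520 (ATL5) in the dry pools (53.7%) and at 1 h (53.7% ± 6.66), and by AT5G39740 at the other times of the time course.

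Dry pools had a different balance in several families. RPL24 was carried by AT3G53020 to 92.4% ± 2.96 in dry Col-0 pools and 88.8% ± 4.62 at 1 h, and to 74.9% ± 3.49 at 1 day. RPL17 was carried by AT1G67430 to 88.4% ± 3.77 in dry Col-0 pools and 67.7% ± 3.97 after recovery, and RPL12 by AT3G53430 to 77.7% ± 4.17 and 52.6% ± 0.627. In each of these families the minor copies held more after imbibition than in dry seeds. RPL10 was shared nearly evenly at 1 h, when AT1G14320 (SAC52) took 50.1% ± 2.93, but not in dry Col-0 pools (65% ± 2.22), and it reached 72.2% ± 0.765 after recovery. Single seeds and dry pools were prepared by different RNA protocols, so their levels are set side by side without a test.

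RPL23a, RPL23 and RPL26 shifted in another way. RPL23a and RPL26 sit where the exit tunnel opens, and RPL23a helps dock the signal recognition particle. AT2G39460 (RPL23AA) took 74.9% ± 1.6 of its family after 1 day, 47.1% ± 6.3 and 51% ± 6.23 in 3-day and 5-day seeds and 69% ± 1.88 by day 7, so that AT3G55280 (RPL23AB) held as much or more in the middle of the treatment. AT2G33370 of RPL23 held 16.5% ± 1.3, 34.1% ± 5.12, 33.5% ± 3.54 and 18.6% ± 0.808 at the same times, and AT5G67510 of RPL26 held 3.66% ± 1.23, 11.2% ± 3.01, 16.4% ± 7.65 and 4.63% ± 1.8. These minor copies were high in the libraries with 62.0 to 75.5% unspecific UMIs. In Col-0 at 3 days of the dog1 experiment, with 12.4 to 13.9%, the values were 69.1% ± 3.03 for AT2G39460, 20.9% ± 2.38 for AT2G33370 and 5.13% ± 1.56 for AT5G67510. In the pool-split control, with 50.5 to 57.6%, they were 59.7% ± 6.42, 24.6% ± 1.62 and 11.3% ± 1.13, between the 3-day and the 7-day values for the first 2 genes. Over single seeds the level of AT2G33370 rose with the unspecific share at 3 and 5 days (Spearman's rho 0.39 and 0.44, n = 96 seeds each), where the median member had -0.22 and -0.29. The part of unspecific UMIs in these shifts was not tested further.

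**Figure D4:**
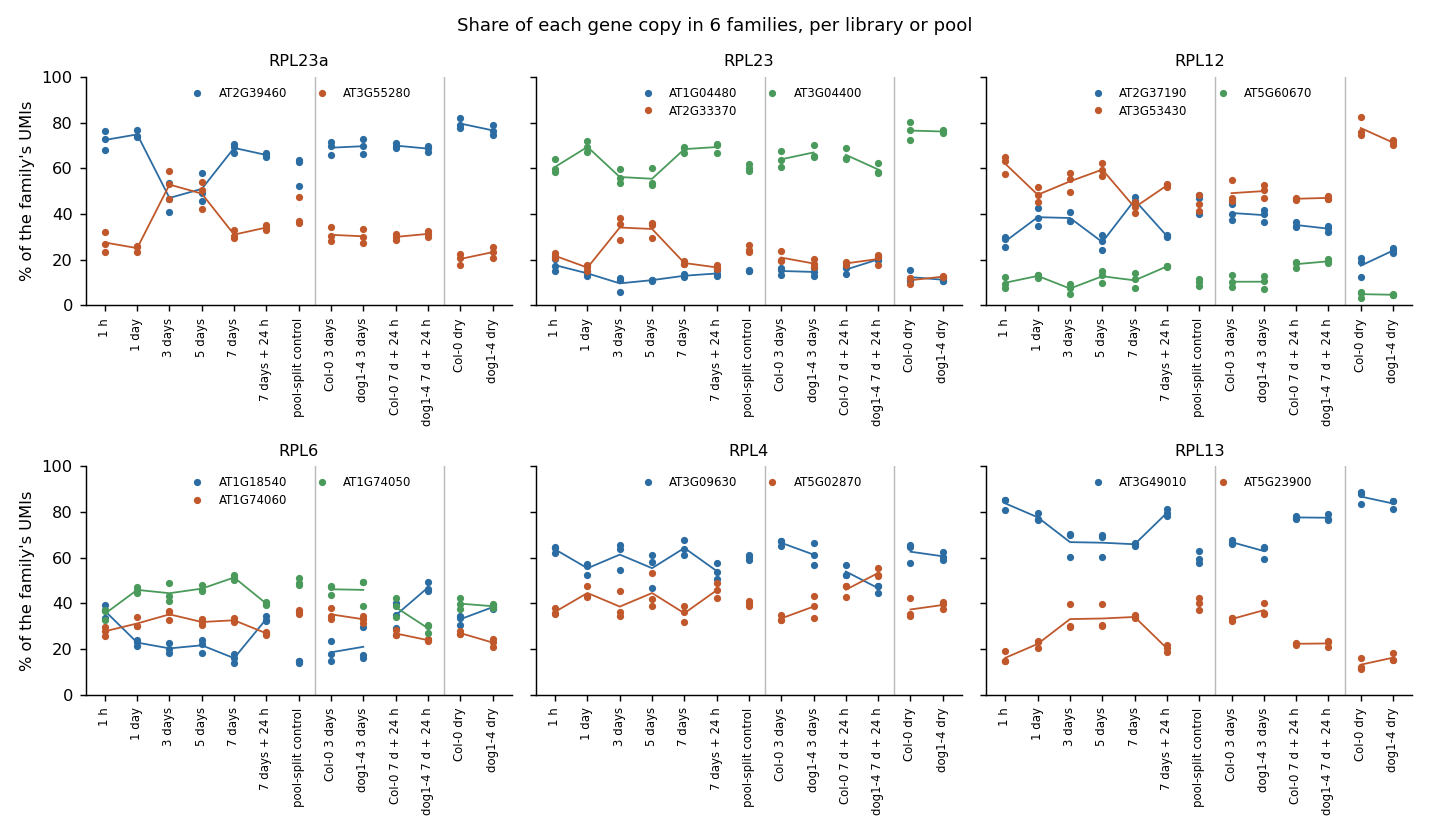
Share of each gene copy in the UMIs of its family (vertical axis, %) for 6 families, by group (horizontal axis), with points for libraries or dry pools and lines joining group means. RPL23a is led by AT2G39460 except at 3 days of the time course, and AT1G18540 of RPL6 rises from 16.0% at 7 days to 33.3% after recovery.

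Single seeds differed in the share of these transcripts. At 1 h the 93 seeds ranged from 0.166 to 0.997% with a median of 0.351%, and at 1 day the 96 seeds from 0.850 to 3.80% with a median of 1.88%. Seeds of 3, 5 and 7 days had medians of 0.520, 0.548 and 0.792%, and the highest single seed of the 7-day group reached 3.21%, within the range of recovering seeds. After recovery the median was 2.19% and the range 0.956 to 6.18%. The 96 wells of the pool-split control, which share 1 mixture, ranged only from 0.303 to 0.670%.

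To compare spread across depths, every seed was thinned to 5000 genic UMIs and centred on its library. The SD of the share in the pool-split control was then 0.104 percentage points, where counting alone gives 0.0992. It was 0.156 in 1 h seeds against 0.087 from counting, 0.487 against 0.197 after 1 day and 0.763 against 0.216 after recovery. In between, seeds of 3, 5 and 7 days had SDs of 0.182, 0.203 and 0.395 against 0.104, 0.107 and 0.131. Every group of seeds thus varied more than the mixture did. Taken relative to the mean share, the part of the SD beyond counting was 6.30% in the control and between 22.4% (1 day) and 43.4% (7 days) in the time course. The 7-day value rested on 2 of 93 seeds, at 3.16 and 3.21%, that exceeded 2 times their library's median. Without them the SD was 0.194 points and the relative value 18.2%, below those of the other times with all seeds kept.

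In the dog1 experiment the spread was larger after recovery. The Col-0 seeds ranged from 1.38 to 7.56% around a median of 2.04% and the dog1-4 seeds from 1.75 to 8.42% around 2.99%, with 12 and 17 of 96 seeds above 2 times the median of their library. Those high seeds were found in all 3 libraries of each genotype, 2, 5 and 5 in Col-0 and 6, 4 and 7 in dog1-4. The relative SD beyond counting was 52.6% and 49.8%, against 30.6% at the same point of the time course, where 4 of 95 seeds passed that mark. At 3 days it was 29.3% in Col-0 and 46.3% in dog1-4, and the dog1-4 value rested on replicate 3, the library with green tissue transcripts, which held 2 of the 3 high seeds of the group. Without it the SD fell from 0.404 to 0.184 points. The difference between genotypes was smaller in the medians of seeds (2.99 against 2.04%) and in the means of thinned seeds (3.82 against 2.56%) than in the libraries (means 4.51 against 2.78%). After recovery a seed's share fell as its unspecific share rose (Spearman's rho -0.42 in Col-0 and -0.55 in dog1-4). At 3 days of this experiment rho was 0.12 in Col-0 and 0.11 in dog1-4. In the time course it ran from -0.23 at 1 day to -0.50 at 3 days and -0.63 at 5 days. It was -0.62 in the pool-split control, whose wells share 1 mixture. The part of unspecific UMIs in the spread was not tested there. The SD of thinned recovering seeds of the dog1 experiment was 1.36 points in Col-0 and 1.92 in dog1-4. After regression on the unspecific fraction it was 1.09 and 1.51 points.

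**Figure D5:**
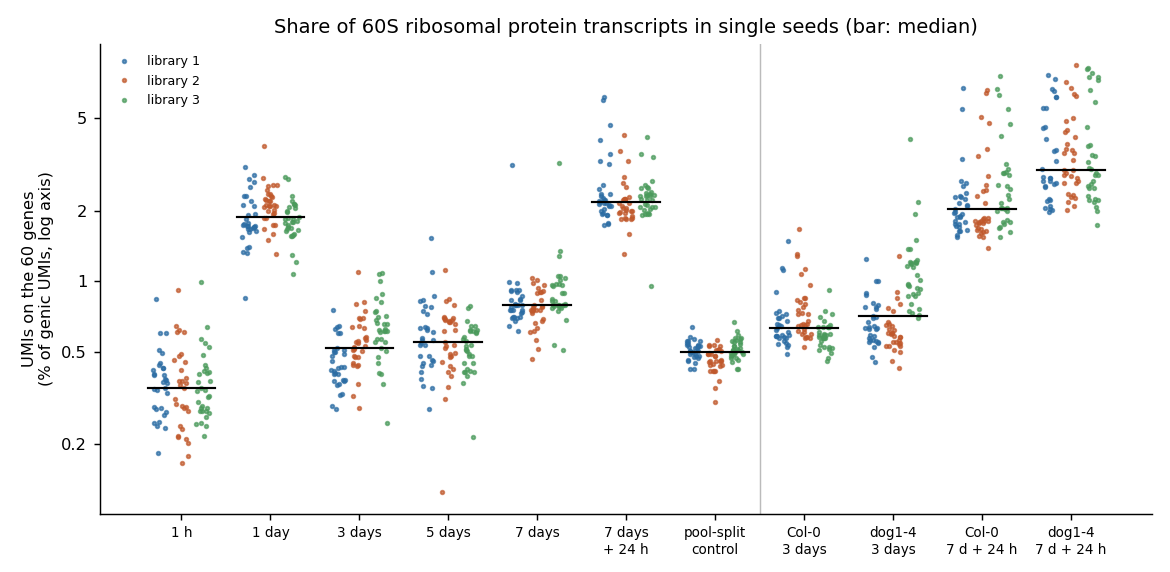
UMIs on the 60 genes as a percentage of genic UMIs (log axis) in single seeds (points) of each group, with the median (bar). The pool-split control is the narrowest group (0.303 to 0.670%), and after recovery seeds of the dog1 experiment reach 7.56% in Col-0 and 8.42% in dog1-4.

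The members varied together among seeds where they were abundant. The median Spearman correlation of a member with the sum of the other 59 over seeds was 0.09 in the pool-split control and 0.34 in 1 h seeds. It was 0.55 after 1 day, 0.28, 0.318 and 0.302 in seeds of 3, 5 and 7 days and 0.673 after recovery, and 0.822 and 0.890 after recovery in Col-0 and dog1-4 of the dog1 experiment. These points share depth, and after thinning to 5000 UMIs the medians ran from 0.0131 in the control to 0.585 in recovering dog1-4 seeds. In the time course the thinned medians were 0.2125 after 1 day and 0.281 after recovery, where the highest thinned value of a member was 0.499. Without thinning, values over 0.5 were reached by 54 of 60 members in recovering seeds of the time course, by 59 in Col-0 and by all 60 in dog1-4. The lowest of all 3 groups was AT2G42740 (RPL11), with 0.26, 0.42 and 0.60, a member with few UMIs. At 3 days AT5G67510 (RPL26) had -0.31, the lowest value of that group.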

How the data were processed

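RNA of single Arabidopsis seeds was sequenced from transcript 3′ ends with barcodes for the seed and UMIs for the molecule, and RNA of dry seed pools likewise. Reads went through poly(A) trimming and unique mapping by STAR 2.7.8a against TAIR10 and Araport11. For single seeds the authors tabulated UMIs per gene and seed with BRBseqTools, and for the dry pools they removed duplicates with UMI-tools 1.1.0 and assigned reads with HTSeq 0.11.3. Both kinds were deposited as raw counts. Rows that name no gene held 42.7% of the counts in the time course, 9.86% in the dog1 experiment and 3.28% in the dry pools, and stayed out of library sizes and tests.

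Gene identifiers were looked up in the RefSeq annotation of TAIR10.1, where 36899 of 37184 time course genes matched, and 27444 nuclear protein-coding genes were kept. Counts of seeds with 5000 or more genic UMIs were summed by library. In the time course a gene needed a mean of 1 UMI per seed (8763 genes) and a correlation with unspecific UMIs of at most 0.3 (8074 genes), in the dog1 experiment the mean alone (11019 genes), and in the dry pools the count filter of edgeR (9493 genes). Tests were quasi-likelihood F-tests (edgeR 4.0.16, R 4.3.3) after TMM scaling. Each experiment was fitted once over its groups, and adjusted p-values are those of edgeR. DESeq2 1.42.0 was an alternative. The fits were tested on simulated data. Shares, thinned counts and promoter windows were computed in Python 3.11.15.

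Groups came from the submitters' labels. Named genes were the leading copy of each family, the 3 largest changes in each direction among called members, members called against the rest or left out by a filter, and copies whose family share moved by 10 points. The members and all lists were chosen with earlier results of these data known. Alternatives for the test of any change over time, paralog shares, promoter windows and the highest 7-day seeds were chosen after seeing the data. Same-numbered libraries deviated together, with correlations of 0.318, 0.164 and 0.164, in Col-0 of the dog1 experiment between 3 days and 7 days + 24 h, where a replicate block left 54 members called. The library of the same number was also the closest match for all 3 from 3 to 5 days, with correlations of 0.266, 0.044 and 0.200. The same held from 7 days to 7 days + 24 h of the time course, with 0.248, 0.072 and 0.238. In the remaining comparisons it was not the closest match for all 3. The copies of 1 family are counted in the totals, but their values are not reported here. Counting intervals were not used, since replicates give the error.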

Additional observations from a re-analysis of the deposited data

Results flagged for a closer look

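AT3G16780, a copy of RPL19, differed between the genotypes in its change from 3 days to 7 days + 24 h, by the interaction test of edgeR. The difference of the changes, dog1-4 minus Col-0, was 1.17 on the log2 scale (adjusted p = 0.0473). Col-0 libraries went from 37.6, 42.3 and 29.5 CPM to 71.9, 89.1 and 109.9 CPM, and dog1-4 libraries from 26.3, 31.9 and 46.9 CPM to 214, 183 and 201 CPM. All 3 dog1-4 libraries lay above the Col-0 libraries after recovery, and the genotypes overlapped at 3 days. No member was called when any of 10 of the 12 libraries was left out, and 14 were called without dog1-4 replicate 3 of 3 days, the library in which 8 of 32 seeds held 100 or more UMIs of green tissue markers. The shares of all genes called in these fits are not given, so the 14 has no background.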

How the results depend on the processing

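The large changes kept their counts to within 1.5 times under all alternatives run, namely the higher calls from 1 h to 1 day, the lower calls from 1 to 3 days, the higher calls in recovery and those from 3 days to 7 days + 24 h in both experiments and genotypes. Of all named members' fold changes under the alternatives, 428 kept their direction and their side of the threshold, 62 were weaker and 0 reversed. Scaling by library size alone shifted the median of all genes, and that of the members by about as much, by 0.38 from 1 h to 1 day, -0.11 from 1 to 3 days, 0.23 from 5 to 7 days, 0.37 in recovery, 0.61 from 3 days to recovery in the time course, 0.63 and 0.48 in Col-0 and dog1-4 of the dog1 experiment, 0.17 against the pool-split control, -0.14 in the interaction, and 0.23 and 0.16 between genotypes at 3 days and in dry pools.

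The counts of the smaller comparisons moved, and the cause was not tested. From 5 to 7 days, members called higher were 3 with library size alone, 45 with no filter or with filterByExpr and 21 with no fold limit. The shares of all genes called higher were 6.09% with library size alone, 14.8% with no filter, 20.1% with filterByExpr and 18.2% with no fold limit. Members called lower there were 1 with library size alone, the replicate block, no limit on the correlation or 10000 UMIs per seed, and 0 with no filter, filterByExpr or thinned seeds. For 7-day seeds against the pool-split control, 13 were called higher with library size alone, 30 with no filter, 29 with filterByExpr, 5 with thinned seeds and 39 with no fold limit. All genes called higher were 1.18% with library size alone, 1.52% with no filter, 1.81% with filterByExpr and 4.47% with no fold limit. Between genotypes after recovery there were 6 with library size alone (4.72% of all genes), 5 with no filter (3.66%) and 44 with no fold limit (16.7%). In the interaction there were 0 with library size alone or thinned seeds. In dry pools 21 were called with library size alone (7.92% of all genes higher), 0 with DESeq2 or with a fold limit, 7 with the replicate block and 8 with no filter (3.59% of all genes higher). The replicate block moved no other count of calls by over 1.5 times. Leaving out single libraries gave 1 to 2 lower calls from 5 to 7 days, 0 to 8 against the pool-split control, 0 to 18 between genotypes after recovery, 0 to 14 in the interaction and 0 to 16 in dry pools. The shares of all genes called without single libraries are not given, so these counts are not set against a background.

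Over all UMIs in place of genic UMIs, the share of the members was 0.177% at 1 h, 1.57% after a day, 0.19%, 0.163% and 0.637% after 3, 5 and 7 days, 1.89% in recovery, 0.235% in the control and 4.01% in recovering dog1-4. Without the 2 highest seeds the SD among 7-day seeds was 0.194 points. Without thinning the SD among seeds was 0.439 points at 1 day and 0.0522 in the control, and after regression on the unspecific fraction it was 1.09 and 1.51 in recovering Col-0 and dog1-4 seeds of the dog1 experiment. Counting only bases before the start, the telo box was in 12 promoters. The limit on the correlation with unspecific UMIs was not run in the dog1 experiment, where it left 679 genes and 0 members. The paper filtered that experiment on the correlation with intergenic reads and kept far more genes. The form used here, raw counts against all unspecific UMIs, thus behaved unlike the paper's filter. Low counts limit AT1G26910 and AT5G67510 most.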
